A study of Mus musculus with 9 samples.

Results

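Astrocytes of the healthy spinal cord carry a characteristic set of channels, transporters and enzymes, and 9 genes of that set were followed here: Aqp4, Slc1a2, Slc1a3, Glul, Aldoc, Gja1, Gjb6, Ndrg2 and Fgfr3. Members were taken as all probe sets (groups of short oligonucleotides that together read out one transcript) whose annotated gene symbol was one of these names. Of the 12488 probe sets on the array, 15 belonged to 8 of the 9 genes, and 13 of these were among the 12172 probe sets bright enough to be tested. Slc1a3, the glutamate transporter GLAST, had no probe set under its symbol and was not analysed here.

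In central nervous tissue, astrocytes clear glutamate from synapses through the transporters encoded by Slc1a2 and Slc1a3 and convert it to glutamine with glutamine synthetase, the product of Glul. Aqp4 encodes the water channel of their perivascular end-feet, and Gja1 and Gjb6 encode connexins 43 and 30, whose gap junctions couple astrocytes into a network through which ions and metabolites pass. Aldoc encodes the brain aldolase isoform of glycolysis, Ndrg2 encodes a cytosolic protein enriched in mature astrocytes, and Fgfr3 encodes a fibroblast growth factor receptor of the astrocyte lineage.

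Whole spinal cord of B10.PL mice was profiled on 9 arrays, each with 1 sample, in 3 groups of 3. The first group had experimental autoimmune encephalomyelitis (EAE, an immune attack on the central nervous system that models multiple sclerosis) and received 200 ng of 1,25(OH)2D3, or calcitriol, the hormone made from vitamin D (replicates 6, 7 and 8). The second group had EAE and received placebo (replicates 1, 5 and 10). Both were sampled 6 h after treatment, so the comparison of calcitriol with placebo covers an early interval only. The third group was naive, without EAE (replicates 2, 3 and 4). The labels give neither age nor sex nor the stage of disease, nor do they say whether replicates were separate animals, so each p-value measures only how far these samples spread, which may be a technical spread. The sample title of calcitriol replicate 6 reads 1,25(OH)2D2, whereas its description names the D3 form, and the replicate was kept in its group. In RNA of whole tissue, fewer astrocytes and less RNA per astrocyte cannot be told apart.

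Sequences just upstream of 3 members are shown because Gja1 was the only member to pass the test and because Aldoc and Ndrg2 varied most alike across arrays once group means were removed. Each runs from 250 bases before to 50 bases after the annotated transcript start, 5′ to 3′ on the gene's own strand, from RefSeq on GRCm38.p6. Capitals mark matches, on either strand, to TGANTCA (AP-1), TTCNNNGAA (STAT), AGGTCA (a nuclear receptor half-site) or TATAAA, the core of the TATA box.
Gja1 at chr10:56377050-56377349, plus strand: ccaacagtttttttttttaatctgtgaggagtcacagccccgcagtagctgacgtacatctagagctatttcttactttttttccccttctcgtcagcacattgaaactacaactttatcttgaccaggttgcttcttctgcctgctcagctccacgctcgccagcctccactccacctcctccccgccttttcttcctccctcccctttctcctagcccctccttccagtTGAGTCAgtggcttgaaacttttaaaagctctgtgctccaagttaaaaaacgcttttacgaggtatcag
Aldoc at chr11:78322823-78323122, plus strand, the outermost of 2 listed starts: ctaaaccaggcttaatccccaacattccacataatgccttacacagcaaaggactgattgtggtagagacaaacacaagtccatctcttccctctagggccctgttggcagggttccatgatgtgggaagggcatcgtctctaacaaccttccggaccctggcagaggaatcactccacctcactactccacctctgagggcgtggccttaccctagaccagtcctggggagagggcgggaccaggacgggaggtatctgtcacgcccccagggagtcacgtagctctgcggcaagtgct
Ndrg2 at chr14:51913955-51914254, minus strand, the outermost of 3 listed starts: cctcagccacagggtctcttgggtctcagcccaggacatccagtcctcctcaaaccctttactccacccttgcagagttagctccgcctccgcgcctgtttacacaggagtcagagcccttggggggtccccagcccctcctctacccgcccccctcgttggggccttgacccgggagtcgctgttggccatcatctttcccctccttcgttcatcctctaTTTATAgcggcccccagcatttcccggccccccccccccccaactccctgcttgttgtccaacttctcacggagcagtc
The Gja1 window held 1 match to the AP-1 motif, beginning at position -19 from the start. The Ndrg2 window held 1 match to the TATA box on the opposite strand, beginning at position -29. The Aldoc window held none of the 4 motifs. Among all 32851 listed windows of this length, 7.81% held the AP-1 motif, 8.3% the STAT motif, 16.3% the nuclear receptor half-site and 13.6% the TATA box.

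The naive arrays were less alike than the EAE arrays, and naive replicate 2 stood furthest apart. Its median correlation with the other naive arrays was 0.866 (0.871 for naive replicate 4 and 0.904 for naive replicate 3), where EAE arrays had 0.919 to 0.943 within their groups. Naive replicates 2 and 4 carried 178 and 171 of the 765 exact zeros among the deposited signals. A fit that estimates a weight per array gave naive replicate 2 the lowest, 0.31, with 0.52 to 2.13 for the others. Exact zeros occurred in probe sets that were bright on other arrays, among them Gja1 and Glul, and were treated as missing. Naive replicate 2 also had the highest summed signal of neuronal markers (18198, with 9263 and 8169 on the other naive arrays, over 11 of 13 measured markers) and of oligodendrocyte markers (9438, with 5415 and 5295, over 8 of 9). Astrocyte markers other than the members were also highest there (3254, with 2076 and 1835 on the other naive arrays, over 4 of 5). No neuronal or astrocyte marker and 1 oligodendrocyte marker lay at the lower limit of measurement on that array. Their part in the members' values was not tested, so the naive comparisons are given with and without that array. The log2 ratio of 5′ to 3′ actin signal, a measure of RNA and labelling quality, was -0.83 to -0.52 on calcitriol arrays, -1.11 to -0.42 on placebo arrays and -0.25 to 0.12 on naive arrays. Its naive values all lay above those of both EAE groups, and its part in the results was not tested.

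**Figure D1:**
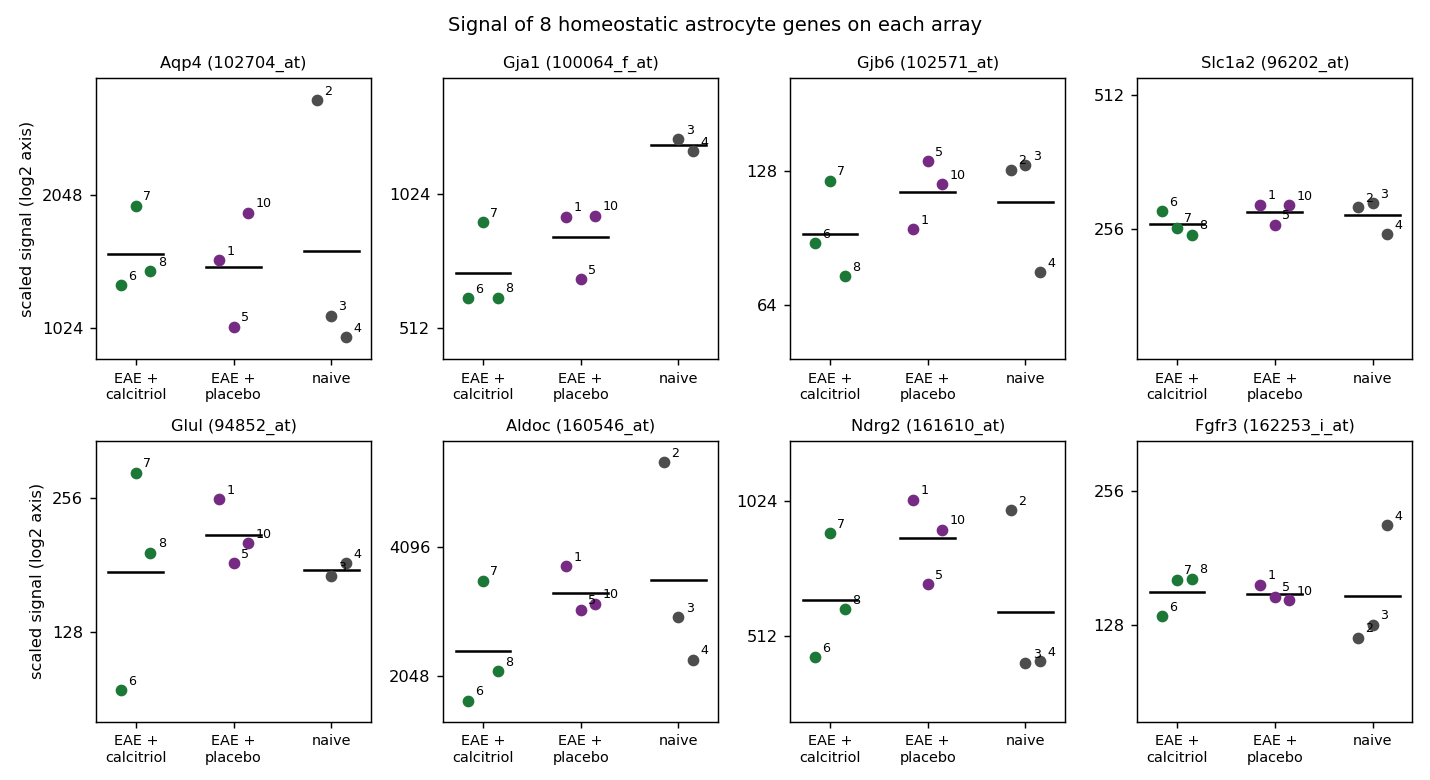
Scaled signal (vertical log2 axis) of the probe set representing each of 8 homeostatic astrocyte genes, on 9 arrays in 3 groups. Points are arrays labelled by replicate number and bars are group means of the log2 values. Gja1 is lower on all 6 EAE arrays than on the 2 measured naive arrays, whereas the groups overlap in every comparison for the other 7 genes.

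Of the homeostatic set, Gja1 alone passed the test. It was lower in calcitriol-treated EAE than in naive cord, and no other member passed an adjusted p of 0.05 in any of the 3 comparisons. In calcitriol-treated EAE against naive cord, 1 of 8 genes passed, where 2.69% of all tested probe sets did (0.6% in the direction of lower signal), and 1 had an unadjusted p under 0.05 by limma, where 12.7% of all did. In placebo-treated EAE against naive cord, 0 of 8 passed, where 1.4% of all tested probe sets did, and 1 of 8 had an unadjusted p under 0.05 by limma, where 10% of all did. In calcitriol-treated against placebo-treated EAE, 0 of 8 passed by limma, as did 0 of all 12172 probe sets, and 0 of the 8 genes had an unadjusted p under 0.05, where 2.82% of all probe sets did. The median log2 difference of the members was -0.05 for calcitriol minus naive and 0.02 for placebo minus naive, close to the median of all probe sets (-0.03 in both). For calcitriol minus placebo it was -0.27, where that of all probe sets was 0.00045 below 0, and 6 of 8 genes were below 0, where 50.1% of all probe sets were.

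**Figure D2:**
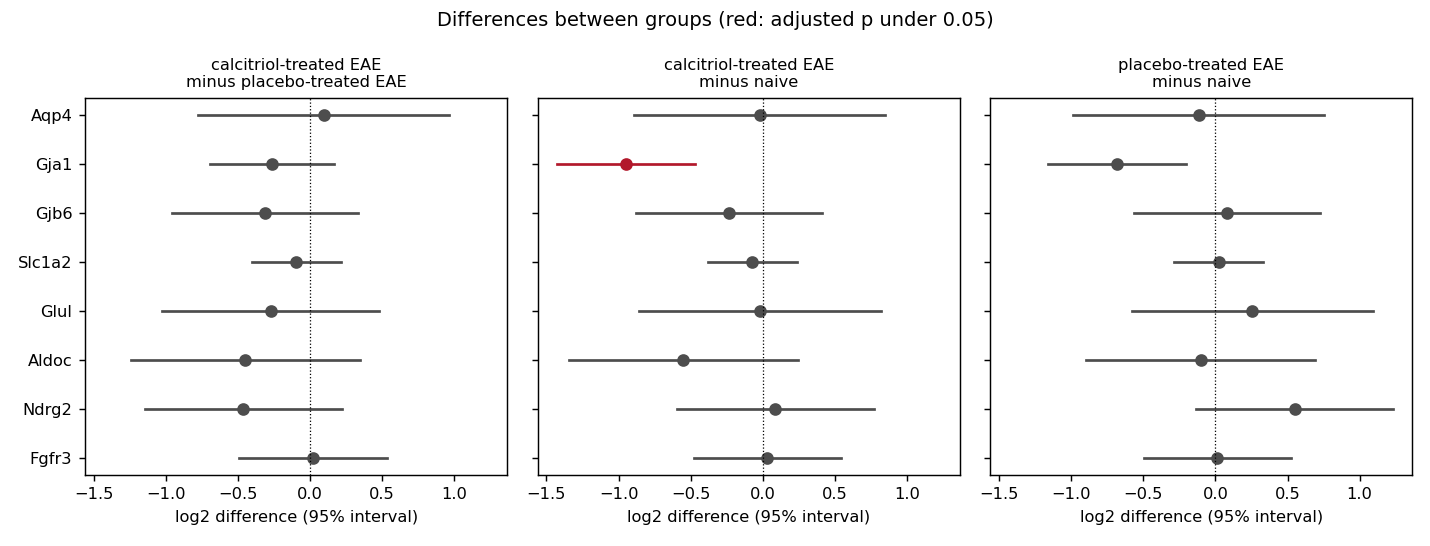
Log2 difference (horizontal axis, with 95% interval) of each of 8 genes in the 3 comparisons, from 1 limma fit over all 9 arrays. Gja1 in calcitriol-treated EAE minus naive, in red, is the single value past an adjusted p of 0.05, at -0.95.

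Of the 2 connexins among the members, Gja1 passed in 1 comparison and Gjb6 in none. Gja1, which encodes connexin 43, the main astrocyte gap junction protein, had scaled signals of 597, 884 and 599 on the calcitriol arrays and 910, 658 and 915 on the placebo arrays, against 1357 and 1275 on naive replicates 3 and 4 (probe set 100064_f_at, chr10:56377300-56390419 on GRCm38.p6, plus strand). All 6 EAE arrays lay below both measured naive arrays, and calcitriol and placebo arrays overlapped. The remaining naive array, replicate 2, was listed at exactly 0 and entered as missing. The log2 difference of calcitriol minus naive was -0.95 ± 0.22 (SE, n = 3 and 2), a 1.93-fold lower level, with an adjusted p of 0.0451 by limma and a 95% interval of -1.43 to -0.47. Placebo minus naive was -0.68 ± 0.22, with an adjusted p of 0.236 and an interval of -1.16 to -0.21. Groups without overlap in the lower direction made up 8.43% and 7.83% of all probe sets in these comparisons. The difference between the EAE groups was -0.26 ± 0.19, with an interval of -0.69 to 0.16. The smallest p that an exact permutation test of 3 against 2 arrays can give, 0.1, was reached in both comparisons with naive.

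The Gja1 call rested on few arrays. It was kept in 9 of 20 alternative settings and lost in 11, among them the omission of any one of calcitriol replicates 6 and 8, placebo replicates 1 and 10 and naive replicates 3 and 4, with differences between -1.14 and -0.85 over all 9 omissions. Omitting naive replicate 3 or 4 left 1 measured naive array, taken to vary like the other groups, and omitting naive replicate 2 could not move the Gja1 difference. The setting with the brightest probe set of any suffix used the same Gja1 probe set and the same fit, so its call was fixed in advance. If the zero of naive replicate 2 was instead taken as a true low signal, the difference turned to 1.08 for calcitriol minus naive and 1.34 for placebo minus naive. The second Gja1 probe set, 100065_r_at, did measure naive replicate 2. It read 63.4, 171 and 117 on calcitriol arrays, 102, 101 and 130 on placebo arrays and 471, 209 and 127 on naive arrays, with naive replicate 2 the highest of all 9. Its difference was -1.10 ± 0.44 for calcitriol minus naive (adjusted p 0.303) and -1.07 ± 0.44 for placebo minus naive (adjusted p 0.413), and the groups overlapped. The suffixes of both probe sets mark designs that share probes with other transcripts or leave some probes out.

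Gjb6, which encodes connexin 30, read 88.1, 122 and 74.3 on calcitriol arrays, 94.7, 135 and 120 on placebo arrays and 129, 132 and 76.0 on naive arrays (102571_at). All 3 groups overlapped. The log2 difference was -0.23 ± 0.30 for calcitriol minus naive, 0.08 ± 0.30 for placebo minus naive and -0.31 ± 0.30 for calcitriol minus placebo, and the 3 intervals lay between -0.96 and 0.73. A second Gjb6 probe set, 94391_at, had differences of -0.07, 0.13 and -0.21 in the same order, and another, 161607_r_at, was above the floor on 1 array and was not tested.

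Of 19 other listed genes of connexins, pannexins and a partner protein, 9 were measured, 8 further connexins and Tjp1, a scaffold protein of cell junctions. Of these, 0 passed by limma in any comparison. In calcitriol minus naive, placebo minus naive and calcitriol minus placebo, 1, 1 and 0 had an unadjusted p under 0.05. Of all probe sets, 12.7%, 10% and 2.82% did, in the same order. Gjb1, connexin 32 of oligodendrocytes and Schwann cells, read 143, 147 and 127 on calcitriol arrays, 195, 174 and 186 on placebo arrays and 181 and 286 on naive replicates 2 and 3, while naive replicate 4 was missing. Calcitriol arrays lay below every other measured array for Gjb1. Of all probe sets, 8.43% lay lower without overlap in calcitriol minus naive and 5.27% in calcitriol minus placebo. The Gjb1 difference of calcitriol minus naive was -0.71 (adjusted p 0.166). Leaving out naive replicate 2 left 1 measured naive array for Gjb1, and the difference from it was -1.04 (adjusted p 0.0256, on the assumption that the lone array varies like the other groups), and with zeros taken as low signals it turned to 0.47.

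The water channel showed no difference that passed the test, and its naive level depended on 1 array. Aqp4 read 1282, 1933 and 1376 on calcitriol arrays, 1457, 1032 and 1866 on placebo arrays and 3342, 1093 and 978 on naive arrays (102704_at). Naive replicate 2 was the highest array, and the other naive arrays were within or below the range of the EAE arrays. Calcitriol minus naive was -0.02 ± 0.40, placebo minus naive -0.12 ± 0.40 and calcitriol minus placebo 0.09 ± 0.40. Without naive replicate 2, the signs of the first 2 differences turned, to 0.54 ± 0.23 (adjusted p 0.242) and 0.45 ± 0.23 (adjusted p 0.440). The second probe set, 102703_s_at, correlated with the first at 0.94 over 9 arrays and was also highest on naive replicate 2, at 801.

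Of 14 listed partners of Aqp4 in water and potassium handling, 8 were measured. They were members of the dystrophin complex, a sodium pump subunit and 2 ion cotransporters, and 0 passed by limma. At an unadjusted p under 0.05 were 1, 1 and 0 in calcitriol minus naive, placebo minus naive and calcitriol minus placebo. Of all probe sets, 12.7%, 10% and 2.82% were, in the same order. The medians of the 8 partners were -0.34 for both calcitriol and placebo minus naive. Without naive replicate 2 these medians were -0.25 and -0.06, where those of all probe sets were -0.05 in both. Slc12a2, a sodium-potassium-chloride cotransporter, was at -1.02 ± 0.40 in calcitriol minus naive (adjusted p 0.270) and Slc4a4, a bicarbonate cotransporter, at -0.87 ± 0.41 (adjusted p 0.403). Without naive replicate 2, Slc12a2 was at -0.57 and Slc4a4 at -0.48. Of the other aquaporins, 6 of 10 were measured and 0 passed by limma. In the same order, 1, 0 and 0 had an unadjusted p under 0.05, where 12.7%, 10% and 2.82% of all probe sets did. Mip, the lens aquaporin, was at 0.73 ± 0.30 in calcitriol minus naive (adjusted p 0.315).

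Slc1a2 varied least of the members and Glul much more. Slc1a2, which encodes the transporter GLT-1, read 281, 258 and 249 on calcitriol arrays, 291, 262 and 289 on placebo arrays and 287, 293 and 249 on naive arrays (96202_at). All 9 arrays lay in this narrow range, and the groups overlapped. The differences were -0.07 ± 0.14 for calcitriol minus naive, 0.02 ± 0.14 for placebo minus naive and -0.10 ± 0.14 for calcitriol minus placebo. The interval for placebo minus naive was -0.28 to 0.33 and that for calcitriol minus naive -0.38 to 0.24, the narrowest of any member.

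Glul, which encodes glutamine synthetase, read 94.9, 292 and 193 on calcitriol arrays, 255, 183 and 203 on placebo arrays and 171 and 183 on naive replicates 3 and 4, with an exact 0 on naive replicate 2 (94852_at). The calcitriol arrays held both the lowest and the highest value. Differences were -0.02 ± 0.38 for calcitriol minus naive (n = 3 and 2), 0.26 ± 0.38 for placebo minus naive and -0.27 ± 0.34 for calcitriol minus placebo. The second Glul probe set, 161826_r_at, read 387 and 346 on calcitriol replicates 6 and 8, 513, 499 and 461 on placebo arrays and 378, 352 and 594 on naive arrays, with an exact 0 on calcitriol replicate 7. There the 2 measured calcitriol arrays lay below all placebo arrays, as did the lower group of 5.27% of all probe sets, at -0.42 ± 0.21 (adjusted p 0.9995). The probe sets correlated at 0.38 over the 7 arrays that both measured.

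Of the other genes of glutamate and GABA handling, 12 of 24 were measured and 0 passed by limma in any comparison. At an unadjusted p under 0.05 were 2, 2 and 1 in calcitriol minus naive, placebo minus naive and calcitriol minus placebo. Of all probe sets, 12.7%, 10% and 2.82% were, in the same order. Slc6a9, the glycine transporter GlyT1, read 504, 627 and 438 on calcitriol arrays, 656, 579 and 657 on placebo arrays and 1141, 728 and 820 on naive arrays. Both EAE groups lay below the naive arrays, where 8.43% of all probe sets did so for calcitriol and 7.83% for placebo. For Slc6a9, calcitriol minus naive was -0.77 ± 0.19 (adjusted p 0.0530). Gad1, which makes GABA in inhibitory neurons, was at -1.44 ± 0.40 (adjusted p 0.105), with naive replicate 4 missing. Without naive replicate 2, Slc6a9 was at -0.58, and Gad1 was at -0.85 against the 1 naive array left.

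Once group means were removed, Aldoc and Ndrg2 were the most closely correlated pair of members. Aldoc read 1795, 3426 and 2107 on calcitriol arrays, 3708, 2933 and 3027 on placebo arrays and 6483, 2811 and 2238 on naive arrays (160546_at, chr11:78323073-78327781 on GRCm38.p6). Calcitriol replicates 6 and 8 were the lowest arrays and naive replicate 2 was the highest. The differences were -0.55 ± 0.36 for calcitriol minus naive (adjusted p 0.595), -0.10 ± 0.36 for placebo minus naive (adjusted p 0.965) and -0.45 ± 0.36 for calcitriol minus placebo. Without naive replicate 2, calcitriol minus naive was -0.09 ± 0.25 and placebo minus naive turned to 0.35 ± 0.25 (adjusted p 0.583).

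Ndrg2 was highest in the placebo group, though not past the threshold. It read 458, 869 and 587 on calcitriol arrays, 1034, 667 and 884 on placebo arrays and 978, 444 and 448 on naive arrays (161610_at, chr14:51905271-51914004 on GRCm38.p6, minus strand). Placebo arrays lay above naive replicates 3 and 4 and around naive replicate 2. Placebo minus naive was 0.55 ± 0.31 (adjusted p 0.646), calcitriol minus naive 0.09 ± 0.31 and calcitriol minus placebo -0.46 ± 0.31. Without naive replicate 2, placebo minus naive was 0.93 ± 0.24 with an adjusted p of 0.0661, and calcitriol minus naive was 0.47 ± 0.24 (adjusted p 0.327). The second probe set, 96088_at, read 389, 603 and 317 on calcitriol arrays, 632, 564 and 615 on placebo arrays and 988, 342 and 313 on naive arrays. Its differences were -0.17 ± 0.37 for calcitriol minus naive, 0.35 ± 0.37 for placebo minus naive and -0.52 ± 0.37 for calcitriol minus placebo.

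Of the relatives of Ndrg2, Ndrg3 gave the largest difference. Ndrg3 read 110, 153 and 151 on calcitriol arrays, 180, 201 and 203 on placebo arrays and 442, 372 and 264 on naive arrays. The 3 groups did not overlap. Of all probe sets, 8.43%, 7.83% and 5.27% lay lower without overlap in calcitriol minus naive, placebo minus naive and calcitriol minus placebo. For Ndrg3, calcitriol minus naive was -1.36 ± 0.21 (adjusted p 0.00420) while placebo minus naive was -0.85 ± 0.21 (adjusted p 0.0909). Ndrg4, expressed mainly in neurons, was at -1.16 ± 0.28 in calcitriol minus naive (adjusted p 0.0530), and Ndrg1 at -0.53 ± 0.19 (adjusted p 0.223). Thus 1 of 3 measured relatives fell in calcitriol-treated EAE against naive cord, where 0.6% of all probe sets did. When naive replicate 2 was left out, 2 of 3 passed, Ndrg3 and Ndrg4, where 4.45% of all probe sets passed in either direction. Summed neuronal markers were 4857 to 5530 on calcitriol arrays, 5317 to 7405 on placebo arrays and 8169 to 18198 on naive arrays, with at most 1 of 13 markers at the floor, and their part in these differences was not tested.

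Among the other aldolases and enzymes of glycolysis and lactate metabolism, 14 of 18 were measured, and 2 fell in calcitriol-treated EAE against naive cord, where 0.6% of all probe sets did. In placebo minus naive and in calcitriol minus placebo 0 passed by limma. At an unadjusted p under 0.05 were 5, 4 and 3 in calcitriol minus naive, placebo minus naive and calcitriol minus placebo. Of all probe sets, 12.7%, 10% and 2.82% were, in the same order. Eno2, the neuronal enolase, read 922, 811 and 710 on calcitriol arrays, 1318, 1156 and 853 on placebo arrays and 1864, 1332 and 1252 on naive arrays, with calcitriol minus naive at -0.85 ± 0.20 (adjusted p 0.0496). Ldhb, a lactate dehydrogenase subunit, read 894, 902 and 958 on calcitriol arrays, 1404, 1094 and 1029 on placebo arrays and 1555, 1576 and 1409 on naive arrays, with calcitriol minus naive at -0.72 ± 0.15 (adjusted p 0.0232). Calcitriol arrays were below all others for Ldhb. Of all probe sets, 8.43% lay lower without overlap in calcitriol minus naive and 5.27% in calcitriol minus placebo. The share below both groups was not counted. Aldoa, the widely expressed aldolase, read 850, 870 and 1187 on calcitriol arrays, 1656, 1433 and 1204 on placebo arrays and 460, 695 and 966 on naive arrays. Placebo arrays were the highest for Aldoa, and placebo minus naive was 1.07 ± 0.25 (adjusted p 0.0626). Eno2 no longer passed without naive replicate 2 (adjusted p 0.0575), Ldhb still did, and Pgk1 in both comparisons and Ldha in calcitriol minus naive passed as higher, names that follow from the count and not from the naming rule. In that setting 4.45% of all probe sets passed in calcitriol minus naive and 2.37% in placebo minus naive.

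Fgfr3 read 134, 162 and 162 on calcitriol arrays, 158, 148 and 145 on placebo arrays and 120, 128 and 214 on naive arrays (162253_i_at, chr5:33721724-33737068 on GRCm38.p6). Naive arrays held both the lowest and the highest values. The differences were 0.03 ± 0.23 for calcitriol minus naive, 0.01 ± 0.23 for placebo minus naive and 0.02 ± 0.23 for calcitriol minus placebo, with intervals within -0.50 and 0.54. The other Fgfr3 probe set, 160919_r_at, was above the floor on 2 arrays and was not tested. Of the 10 measured genes of fibroblast growth factor receptors, ligands and feedback regulators, out of 14 listed, 0 passed by limma. In the same order, 3, 3 and 0 had an unadjusted p under 0.05, where 12.7%, 10% and 2.82% of all probe sets did. Dusp6, a phosphatase induced by this signalling, was at 1.21 ± 0.35 in calcitriol minus naive (adjusted p 0.105), and Fgf9, a ligand, at -0.69 ± 0.36 (adjusted p 0.466). Dusp6 read 24.4, 36.3 and 10.8 on naive arrays, where the floor is 19.4. Its difference ranged from 0.62 to 1.49 over the alternative settings.

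Some members varied alike from array to array and others did not. After the group means were removed, log2 signals of Aldoc and Ndrg2 correlated at 0.95, those of Aqp4 and Ndrg2 at 0.91 and those of Aqp4 and Aldoc at 0.89 over 9 arrays. Fgfr3 ran against Slc1a2, at -0.79. Other pairs were weaker, such as Slc1a2 and Ndrg2 at 0.22 and Ndrg2 and Fgfr3 at -0.24. These values were not recomputed without naive replicate 2. With group means kept, Aqp4 and Aldoc correlated at 0.78 over 9 arrays and at 0.425 without that array. Aqp4 and Ndrg2 were at 0.73 either way, and Aldoc and Ndrg2 at 0.77 and 0.80. These coefficients are descriptions, since all genes on an array share its RNA, labelling and scaling. The mean of the members on each array, relative to each gene's own mean, was -0.42, 0.24 and -0.22 on calcitriol replicates 6, 7 and 8, 0.18, -0.09 and 0.15 on placebo replicates 1, 5 and 10, and 0.48, -0.05 and -0.14 on naive replicates 2, 3 and 4. The value of naive replicate 2 is over 6 genes, without Gja1 and Glul, and the others are over 8. Calcitriol replicate 7 was thus unlike the other calcitriol arrays, and naive replicate 2 unlike the other naive arrays, while the median of all tested probe sets stayed between -0.03 and 0.04 on every array.

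**Figure D3:**
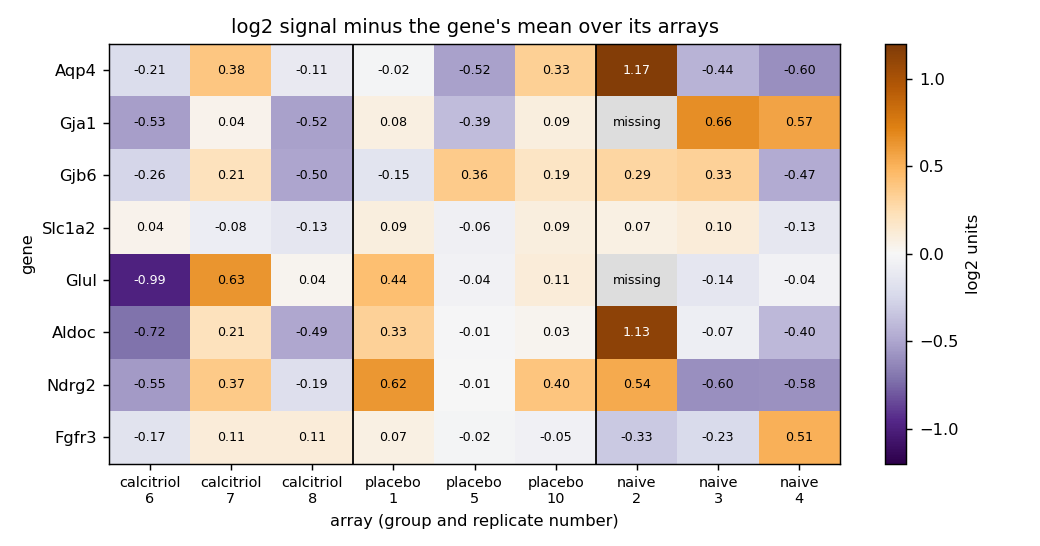
Log2 signal of 8 genes (rows) on 9 arrays (columns) minus each gene's mean over its measured arrays, with the value in each cell and grey for missing. Aqp4 and Aldoc stand at 1.17 and 1.13 on naive replicate 2, and calcitriol replicate 6 is at -0.99 for Glul.

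Among 7695 other genes measured on all arrays, the 5 whose signals most resembled the members' mean were Htra1 (Pearson correlation 0.98 over 9 arrays), Scaf8 (0.97), Smarca2 (0.95), Ndufa5 (0.94) and Palm (0.94). Without naive replicate 2 the coefficients were 0.98, 0.96, 0.94, 0.90 and 0.91. Htra1, a secreted serine protease, read 432, 635 and 499 on calcitriol arrays, 665, 549 and 639 on placebo arrays and 877, 541 and 518 on naive arrays, so that it was lowest on calcitriol replicate 6 and highest on naive replicate 2, as Aldoc was.

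**Figure D4:**
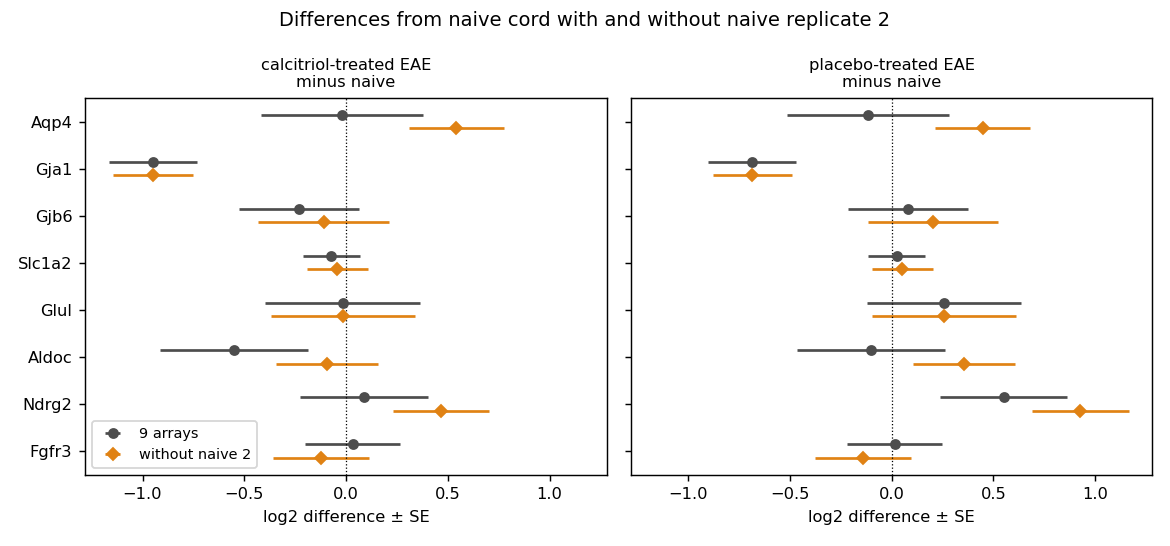
Log2 difference ± SE of 8 genes from naive cord over 9 arrays (circles) and without naive replicate 2 (diamonds), for calcitriol-treated EAE on the left and placebo-treated EAE on the right. On the left, Aqp4 is at 0.54 without that array and at -0.02 with it, and Gja1, missing on that array, necessarily keeps its value.

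Other homeostatic astrocyte genes, which encode secreted factors, matrix proteins, lipid carriers and transcription factors, included genes that fell. Of 28 measured out of 34 listed, 4 fell in calcitriol-treated EAE against naive cord, where 0.6% of all probe sets did, and 1 in placebo-treated EAE against naive cord, where 0.0986% did. Between the EAE groups 0 passed by limma, and 3 had an unadjusted p under 0.05, where 2.82% of all probe sets did. The median differences of the 28 genes were -0.27, -0.09 and -0.23 in that order of comparisons. Bcan, brevican of the extracellular matrix, read 253, 238 and 227 on calcitriol arrays, 354, 261 and 241 on placebo arrays and 598, 511 and 497 on naive arrays. Every EAE array was below every naive array for Bcan, where 8.43% of all probe sets lay lower without overlap for calcitriol and 7.83% for placebo. The Bcan differences were -1.16 ± 0.17 for calcitriol minus naive (adjusted p 0.00238) and -0.92 ± 0.17 for placebo minus naive (adjusted p 0.0160).

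Sparcl1, which encodes the synapse-promoting matrix protein hevin, read 514, 788 and 471 on calcitriol arrays, 838, 644 and 576 on placebo arrays and 2418, 1326 and 1095 on naive arrays. Calcitriol minus naive was -1.40 ± 0.28 (adjusted p 0.0199) and placebo minus naive -1.17 ± 0.28 (adjusted p 0.0809). Id4, a transcriptional inhibitor, was at -0.81 ± 0.15 in calcitriol minus naive (adjusted p 0.0140), and Agt, angiotensinogen, at -0.69 ± 0.16 (adjusted p 0.0419). Without naive replicate 2, these 4 genes still passed in calcitriol minus naive and Bcan in placebo minus naive, whereas Clu passed as higher in both and Mt3 in placebo minus naive, and the medians were -0.06 and 0.08, in a setting where 4.45% and 2.37% of all probe sets passed. Clu and Mt3 follow from the count and not from the naming rule.

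The reactive astrocyte genes, which are known to rise when astrocytes respond to injury or inflammation, were higher in both EAE groups. Of 26 measured out of 33 listed, 12 rose in calcitriol-treated EAE and 11 in placebo-treated EAE against naive cord (2.09% and 1.31% of all probe sets), with medians of 1.10 and 1.07. Between the EAE groups 0 passed by limma, and 4 had an unadjusted p under 0.05, where 2.82% of all probe sets did. Serpina3n, a protease inhibitor, was at 4.89 ± 0.21 in calcitriol minus naive (adjusted p 2.37e-07) and 5.30 ± 0.21 in placebo minus naive (adjusted p 9.42e-08). Gfap, the intermediate filament protein by which reactive astrocytes are recognised, read 1676, 1513 and 914 on calcitriol arrays, 2332, 2715 and 2310 on placebo arrays and 953 and 1001 on naive replicates 3 and 4, with an exact 0 on naive replicate 2. It rose in placebo-treated EAE (1.32 ± 0.25, adjusted p 0.0235) and was at 0.44 ± 0.25 in calcitriol-treated EAE (adjusted p 0.520). Calcitriol arrays lay below placebo arrays for Gfap, at -0.89 ± 0.22 (adjusted p 0.9995 by limma). Groups without overlap in that direction made up 5.27% of all probe sets. In the same comparison Ptx3 and Cxcl10 were higher, at 1.09 ± 0.31 and 0.92 ± 0.33 (adjusted p 0.9995 by limma for each). The median of the reactive list for calcitriol minus placebo was 0.05, with 15 of 26 genes above 0.

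Several genes of the reactive list, such as Lcn2, Srgn and Cd14, are also expressed by leukocytes. Summed markers of monocytes, macrophages and microglia were 5874 to 9075 on calcitriol arrays, 5058 to 6245 on placebo arrays and 2839 to 2954 on naive arrays, over 16 of 17 measured markers, and 3 or 4 of the 17 lay at the floor on naive arrays, against at most 1 on EAE arrays. Their part in the differences of the reactive genes and of the members, whose signals are scaled to the whole tissue, was not tested.

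**Figure D5:**
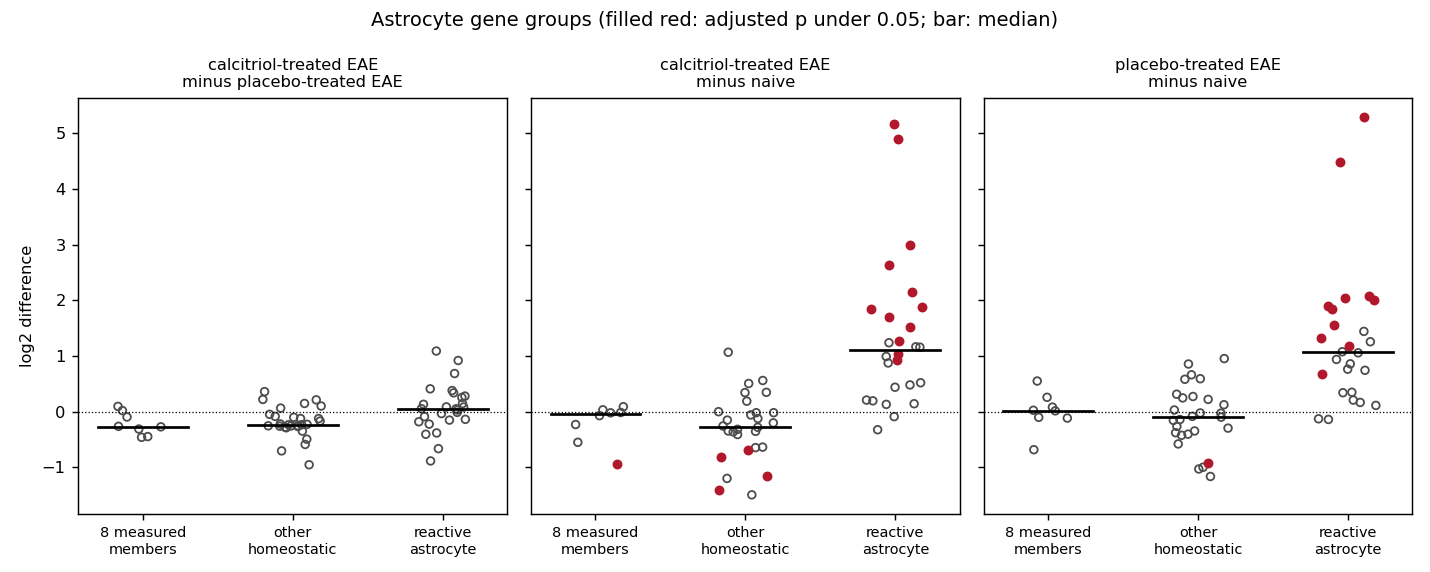
Log2 difference (vertical axis) of the 8 measured members, of 28 other homeostatic astrocyte genes and of 26 reactive astrocyte genes in the 3 comparisons. Points are genes, filled red past an adjusted p of 0.05, and bars are medians. Over all 9 arrays, the members' medians are -0.05 and 0.02 against naive cord, where the reactive list is at 1.10 and 1.07.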

How the data were processed

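The deposited values are linear array intensity signals for 12488 probe sets per array, with some values below 0, and 765 exact zeros. The authors' method of summarising or scaling these intensity signals was not given in the sources used here. Each array was scaled to a common trimmed mean of 194 (without the lowest and highest 2%), exact zeros were set to missing, values under 10% of that mean (19.4, called the floor) were raised to it, and log2 was taken. The 66 controls were left out, and the 12172 other probe sets that exceeded the floor on 3 or more of 9 arrays were tested. One limma 3.58.1 fit (R 4.3.3) with an intensity trend over all 9 arrays gave the 3 comparisons, and p-values were Benjamini-Hochberg adjusted over all tested probe sets. Intervals are at 95%, errors of differences are SE, and the number of arrays limits the precision. A gene with several probe sets is represented by a plain one where present, then the brightest. Gene symbols come from the platform annotation, which gives 1 symbol to 10855 probe sets, several to 396 and none to 1237, and positions from RefSeq (GRCm38.p6). From each gene list, genes past the threshold and otherwise up to 3 with the smallest unadjusted p could be named, beside the members and the 5 genes most like their mean. Members and lists were chosen with earlier results of these data known. The fit was tested on simulated data with the spread of these arrays. It called 33.2%, 35.4% and 38% of 2-fold changes in calcitriol minus naive, placebo minus naive and calcitriol minus placebo. For 4-fold changes the shares were 79.8%, 80.2% and 78%, so many 2-fold differences would not pass. Plots were made with matplotlib 3.10.9 and pandas 2.3.3 under Python 3.11.15. Alternatives were zeros raised to the floor, values as deposited, quantile normalization, other floors and filters, 2-group fits, array weights, no intensity trend, other probe sets and each array left out. An exact permutation test was also run for the members. The other probe set of a gene, the alternatives for list genes and the list counts without naive replicate 2 were chosen after seeing the data.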

Additional observations from a re-analysis of the deposited data

How the results depend on the processing

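Of 519 recomputed values for the members, 461 kept their direction and their side of the threshold, 46 changed sign and 12 lost the call, and most changes of sign were of differences near 0. These counts include an exact permutation test of each member. That test keeps the difference and cannot give a p below 0.1, so its entries were fixed by the main result and carry no information. The setting with the brightest probe set of any suffix used another probe set for Glul alone. Its entries for the other members repeated the main result. With exact zeros raised to the floor, placebo minus naive was 1.34 for Gja1, and calcitriol minus naive was 1.08 for Gja1, 1.05 for Glul and 0.47 for Gjb1. With values as deposited, placebo minus naive was 0.016 for Aqp4 and 0.029 for Aldoc, and calcitriol minus naive 0.10 for Aqp4, 0.046 for Slc1a2 and 0.15 for Glul. With quantile normalization, placebo minus naive was -0.00082 for Fgfr3 and calcitriol minus naive 0.011 for Glul. With array weights, placebo minus naive was 0.21 for Aqp4, -0.022 for Slc1a2, 0.12 for Aldoc and -0.047 for Gjb6, and calcitriol minus naive was 0.41 for Aqp4 and 0.25 for Glul. With the other probe set, calcitriol minus naive was 0.15 for Aqp4 and -0.17 for Ndrg2. In calcitriol minus naive, 1 member, Gja1, passed in the main fit. Of the members, 0 passed with zeros raised to the floor, where Gja1 itself turned to 1.08. Likewise 0 passed with values as deposited, with no filter, with the 2 groups alone and without the intensity trend, and the cause was not tested. With each array left out in turn, 0 to 1 passed. The left-out ranges for calcitriol minus naive were -0.34 to 0.54 for Aqp4, -0.39 to 0.43 for Glul, -0.16 to 0.47 for Ndrg2 and -0.12 to 0.30 for Fgfr3. For placebo minus naive they were -0.44 to 0.45 for Aqp4, -0.41 to 0.35 for Aldoc, -0.049 to 0.073 for Slc1a2, -0.18 to 0.22 for Gjb6 and -0.14 to 0.28 for Fgfr3. For calcitriol minus placebo they were -0.13 to 0.30 for Aqp4, -0.64 to 0.17 for Glul and -0.029 to 0.11 for Fgfr3. Over all probe sets, calcitriol minus naive gave 327 calls and placebo minus naive 171, against 632 and 350 with array weights, 215 and 111 without the intensity trend, 243 and 114 with zeros raised to the floor, and 151 to 540 and 70 to 288 with one array left out. The extremes came without calcitriol replicate 8 (151), placebo replicate 1 (70) and naive replicate 2 (540 and 288), and placebo minus naive gave 73 without placebo replicate 5, while both counts were lower without naive replicate 3 (214 and 108). Agt was called in 8 of 20 alternatives, Eno2 in 6, Ldhb in 13, Sparcl1 in 13, Id4 in 15 and Bcan and Ndrg3 in 20, all in calcitriol minus naive. Bcan in placebo minus naive was called in 14 and Gfap in 13. For list genes, the setting with the brightest probe set of any suffix repeated the main result, so 1 of the 20 alternatives was fixed in advance. No paired analysis was possible because the groups share no replicate numbers.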
